A study of Mus musculus with 4 samples.

Results

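Hemoglobin-rich erythroid cells were the red cell precursors in which hemoglobin RNA already filled a large part of the message pool. Barcodes were chosen by 4 conditions: at least 1000 genes, at most 10% of UMIs (unique molecular identifiers, each standing for 1 captured RNA molecule) from mitochondrial genes, at least 3 of the erythroid genes Klf1, Car1, Ermap and Rhag detected, and at least 2% of UMIs from the 4 adult globin genes Hba-a1, Hba-a2, Hbb-bs and Hbb-bt. This gave 331 members among 16261 barcodes that passed the gene and mitochondrial conditions. Because the choice used hemoglobin and erythroid RNA, the hemoglobin levels of the members are descriptions and were not tested.

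The members came from 4 single-cell libraries of C57BL/6J mice aged 8 to 16 weeks, female by the study's methods. CBM and CS are bone marrow and spleen of control mice, and TBM and TS are bone marrow and spleen of mice bearing tumors of PyMT-B6 cells, a line made from mammary tumors of MMTV-PyMT mice, in which the mammary promoter of a mouse virus drives the polyoma middle T oncogene. Both organs were digested with collagenase and DNase, cells with lineage markers (Lin+) were removed with beads, and the remainder was sorted as CD45+ c-Kit+ cells with or without Sca-1 and as CD45- cells split by CD31 and CD51. The sorted fractions were pooled at equal ratios, so shares describe the sorted mixture rather than the organ, and with 1 library per group there is no replicate and no test: all intervals are 95% intervals for counting error only, and the number of mice behind a library is not given in the sources used here. Any difference between 2 libraries is therefore a difference between those libraries, and the tumor cannot be told apart from the animal, the preparation or the run.

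Red cells arise from c-Kit+ progenitors that, under GATA1 and KLF1, switch on globin, heme and membrane genes, divide several times while they shrink, and expel the nucleus. Erythropoietin keeps the precursors alive, transferrin receptor brings in the iron, and heme and globin chains are made in step. In mice the spleen takes part in this process, and makes more red cells under stress than at rest.

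The windows below hold the 250 bases before the RefSeq start of Hbb-bs and Hba-a1, the major adult beta and alpha globin genes here, of Alas2, the erythroid form of the first heme enzyme, and of Apol11b and Pdzk1ip1, which were among the 10 lowest ratios of tumor-bearing over control library in both organs. They are from RefSeq on GRCm38.p6, 5′ to 3′ on the gene's strand, and capitals mark 3 motifs. The letters GATAA, or TTATC on the other strand, are the core read by erythroid zinc finger factors such as GATA1. The letters CACCC, or GGGTG on the other strand, are read by Krüppel-like factors such as KLF1, and the letters CCAAT, or ATTGG on the other strand, form the CAAT box.
Hbb-bs: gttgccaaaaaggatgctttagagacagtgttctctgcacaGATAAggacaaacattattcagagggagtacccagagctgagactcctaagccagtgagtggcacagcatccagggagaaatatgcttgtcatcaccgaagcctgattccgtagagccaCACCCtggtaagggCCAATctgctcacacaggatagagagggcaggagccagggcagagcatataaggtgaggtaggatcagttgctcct
Hba-a1: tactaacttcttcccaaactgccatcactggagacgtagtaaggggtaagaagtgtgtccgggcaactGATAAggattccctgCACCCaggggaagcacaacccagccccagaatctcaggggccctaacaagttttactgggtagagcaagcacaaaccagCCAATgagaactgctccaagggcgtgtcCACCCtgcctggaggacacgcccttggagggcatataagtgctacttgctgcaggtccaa
Alas2: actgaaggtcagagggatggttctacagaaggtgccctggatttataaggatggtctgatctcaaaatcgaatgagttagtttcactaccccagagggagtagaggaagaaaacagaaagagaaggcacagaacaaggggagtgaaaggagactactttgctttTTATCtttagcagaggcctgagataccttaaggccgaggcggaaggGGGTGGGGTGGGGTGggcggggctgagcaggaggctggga
Apol11b: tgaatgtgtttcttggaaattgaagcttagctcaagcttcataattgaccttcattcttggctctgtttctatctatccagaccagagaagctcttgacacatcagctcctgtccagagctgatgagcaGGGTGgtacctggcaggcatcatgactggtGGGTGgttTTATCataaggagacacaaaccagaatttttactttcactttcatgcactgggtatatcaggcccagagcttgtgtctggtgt
Pdzk1ip1: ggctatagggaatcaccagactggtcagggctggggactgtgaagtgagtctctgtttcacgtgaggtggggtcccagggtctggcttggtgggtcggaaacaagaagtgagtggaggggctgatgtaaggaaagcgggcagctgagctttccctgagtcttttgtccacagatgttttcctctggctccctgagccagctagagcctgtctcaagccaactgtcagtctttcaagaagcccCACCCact

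The windows lie at chr7:103827929-103828178 (minus strand) for Hbb-bs, chr11:32283422-32283671 (plus strand) for Hba-a1, chrX:150547167-150547416 (plus strand) for Alas2, chr15:77643287-77643536 (minus strand) for Apol11b and chr4:115088458-115088707 (plus strand) for Pdzk1ip1. Both globin windows held each motif at least once. Alas2 held the GATA1 core 1 time and the KLF1 letters 3 times, Apol11b held them 1 and 2 times, and Pdzk1ip1 held the KLF1 letters 1 time and the GATA1 core 0 times. Of 32851 RefSeq windows of the same length, 22.6% held the GATA1 core, 52.0% the KLF1 letters and 33.8% the CAAT box on either strand, so these letters are common and a match is only a description. The windows of Hba-a1 and Hba-a2 shared a run of 247 identical bases, whereas the longest shared run of Hbb-bs and Hbb-bt was 14 bases.

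Members made up 2.63% (92 of 3497 barcodes; 2.13 to 3.22%) in CBM and 2.88% (125 of 4340; 2.40 to 3.42%) in TBM, and 1.95% (63 of 3236; 1.499 to 2.48%) in CS and 0.983% (51 of 5188; 0.733 to 1.29%) in TS. The share was lowest in TS, and the TS interval did not overlap that of any other library, while the marrow intervals overlapped. The shares depend on the barcodes and depth used: among barcodes of at least 350 genes they were 1.72, 1.30, 1.10 and 0.888% in CBM, TBM, CS and TS, and after thinning each barcode to 2000 UMIs they were 1.04, 1.21, 0.903 and 0.445%. TS stayed the lowest, but no intervals are given for these alternatives, so the separation of TS is stated for the first shares only. Set against all erythroid barcodes, that is members plus early erythroid cells with the same marker genes and globin under 2%, the marrow and the spleen stood far apart. Members were 42.4% (35.7 to 49.3%) of 217 erythroid barcodes in CBM, 61.6% (54.5 to 68.3%) of 203 in TBM, 4.59% (3.54 to 5.83%) of 1373 in CS and 1.74% (1.30 to 2.29%) of 2924 in TS. Most erythroid barcodes of the spleen were thus early ones, 1310 in CS and 2873 in TS against 125 in CBM and 78 in TBM. Early barcodes were also deeper in spleen, with medians of 49476 UMIs in CS and 34611 in TS against 18047 in CBM and 24084.5 in TBM. They were not counted at equal depth, so the part of depth in these counts was not tested. A Car1 UMI in a spleen droplet can come from free RNA, and the part of such UMIs in these counts was not tested either. The cells were sorted on c-Kit and CD45 after Lin+ removal, and the part of the sort in these shares was not tested. Kit stood at 8.28 to 22.2 UMIs per 1000000 non-globin UMIs in members, below free RNA at 77.9 to 119.6. Ptprc, which encodes CD45, stood at 7.36 to 19.7 against 40.9 to 105.3 in free RNA. Both gate markers were thus under free RNA in the members of every library.

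Across the members hemoglobin ran from the 2% limit up to 76.3% of a cell's UMIs. The median share of UMIs from the 4 globin genes was 33.5% (quartiles 20.1 and 49.5%) in CBM and 26.04% (12.3 and 47.2%) in TBM, and 26.6% (12.6 and 45.3%) in CS and 15.4% (8.22 and 32.4%) in TS. TS members carried the least hemoglobin RNA, and 11 of its 51 members lay under 5% against 4 of 92 in CBM. Free RNA, from barcodes holding 100 UMIs or fewer, was 0.960, 1.15, 0.767 and 0.280% globin in CBM, TBM, CS and TS, under the 2% limit in each library. The median early erythroid cell held 0.0108, 0.0242, 0.00622 and 0.00385%, also under free RNA. The limit cut through few cells: 7 members lay between 2 and 2.5%, 11 erythroid barcodes between 1.5 and 2%, and 46 barcodes reached 2% globin with too few of the 4 marker genes.

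Cells with more hemoglobin were smaller in RNA. From the lowest class of globin share (2 to 5%) to the highest (40% and over), the median UMI count went from 34743.5 to 11270 in CBM and from 20788 to 10081.5 in TS, and without the globin UMIs from 33896 to 5177 and from 20087 to 4626. The classes are set by globin over all UMIs, so fewer non-globin UMIs by itself raises a cell's class. The fall is thus only a description. The lowest class held 4 cells in CBM and 11 in TS. The median member held 12830, 12231, 17751 and 13025 UMIs in CBM, TBM, CS and TS, with 2324, 2406, 3019 and 2584 genes. Mitochondrial genes took a median of 1.51, 1.75, 1.75 and 3.05% of UMIs, the highest in TS. No barcode was a member in more than 1 library, and 1 member barcode also passed the gene and mitochondrial conditions in another library.

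**Figure D1:**
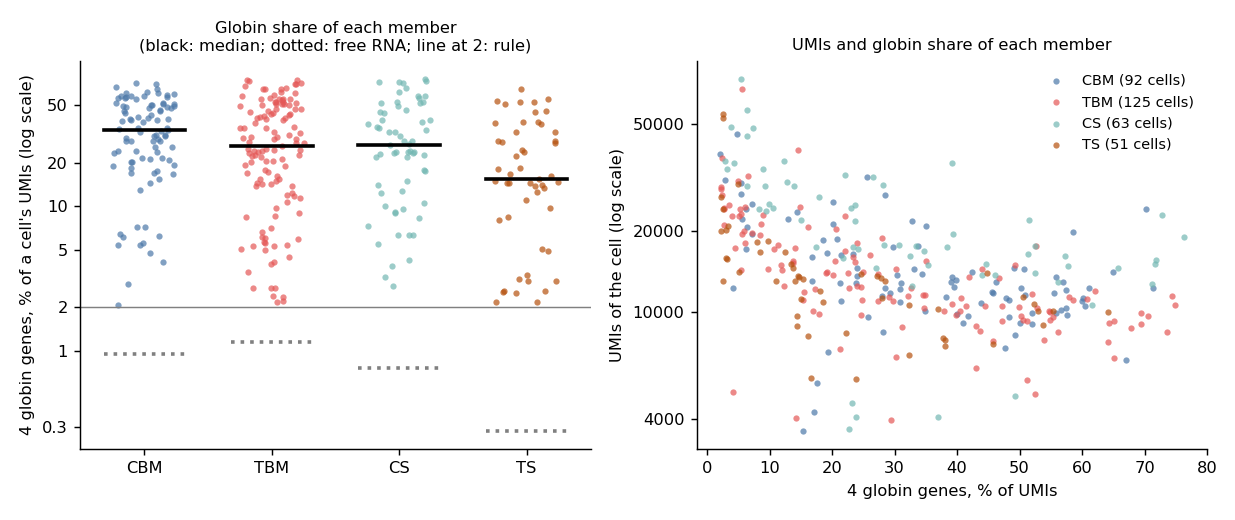
Left, the share of each member's UMIs from the 4 adult globin genes (log scale), with the median as a black bar, free RNA as a dotted line and the 2% limit as a grey line. Right, the UMIs of each member (log scale) against its globin share: the TS median of 15.4% is the lowest of the 4 libraries, and cells with more globin hold fewer UMIs.

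The globin message was of the adult type in the 4 libraries. Hbb-bs gave 47.4, 49.0, 45.3 and 48.4% of the UMIs of the 4 globin genes in CBM, TBM, CS and TS. Hba-a1 gave 22.4, 23.6, 22.9 and 22.5%, Hbb-bt 16.2, 15.5, 17.1 and 17.6%, and Hba-a2 14.1, 11.8, 14.7 and 11.6%. Hba-a1 over Hba-a2 UMIs came to 1.59 in CBM and 1.56 in CS, and to 2.00 in TBM and 1.94 in TS, higher in both tumor-bearing libraries. Beta over alpha UMIs came to 1.74, 1.82, 1.66 and 1.94. The last was the highest, but the middle range of single cells, 1.64 to 2.15 in TS and 1.54 to 1.90 in CBM, overlapped. The split within each pair is uncertain, because 80.1% of the 50-base windows in the last 300 bases of Hba-a1 also occur in another gene and 36.7% of those of Hbb-bs do. Embryonic globins were nearly absent: Hbb-y, the embryonic epsilon-type chain, had at most 7 UMIs and Hbb-bh1 none in the members of any library. Hbq1b, a theta globin, had 41, 46, 42 and 13 UMIs.

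The label held for erythroid genes that the choice had not used. From here on a level is a sum of UMIs over the members of a library per 1000000 of their UMIs outside the globin genes (CPM). Slc4a1, which encodes band 3, the anion exchanger of the red cell membrane, stood at 2421, 2096, 1941 and 1281 in CBM, TBM, CS and TS, against 14.5 to 53.1 in free RNA. Alas2 stood at 1020, 696, 761 and 464, against 5.84 to 18.05. Tfrc, the transferrin receptor, Epor, the erythropoietin receptor, and Gata1 were also above free RNA in every library. Of the genes the choice did use, Car1 stood below free RNA in the spleen (1109 against 1955 in CS, 1398 against 1966 in TS), which means a Car1 UMI in a spleen droplet can come from free RNA. Ahsp, the alpha chain chaperone, was not analysed here.

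Against the early erythroid cells of the same library, 588 of 5490 counted genes (10.7%) were higher by a log2 ratio of at least 1 in all 4 libraries and 634 (11.5%) were lower. The members were selected on hemoglobin, so this contrast is a description. The genes with the greatest excess in the library of least excess were Apol11b, Alas2, Fn3k, Slc4a1, Slfn14, Plek2, Slc6a9, Ackr1, Samd11 and Slc25a37. Apol11b had no UMI in the early cells of TBM, so its place rests on the other 3 libraries. They include Slc25a37, the mitochondrial iron importer mitoferrin, at 900 to 1514 CPM in members and 16.6 to 44.4 in early cells, and Slc6a9, the glycine transporter that feeds heme synthesis, at 66.7 to 124.4 and 0.387 to 2.98. At the other end stood Kit, the stem and progenitor transcription factors Gata2 and Myb, and the calcium-dependent actin-severing gene Scin. Scin had 0 UMIs in the members of both marrow libraries, so its place rests on the 2 spleen libraries, at 5.52 CPM in CS members and 3.17 in TS members. Myb stood at 62.2 to 72.6 CPM in members and 445.6 to 778.8 in early cells, and Gata2 at 3.17 to 17.6 and 23.9 to 217.1.

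Within the members, genes were also set against the globin share. Of 2744 genes with enough UMIs, 1001 were higher in members with at least 20% globin than in members under 5% in each of the 4 libraries, 262 of them by a log2 ratio of at least 1, and 616 were lower in each, 104 of them by at least 1. The lowest class held 4 cells in CBM and CS, 12 in TBM and 11 in TS. Alas2 went from 113.7 to 1544 CPM in CBM, from 109.4 to 1373 in TBM, from 53.7 to 1604 in CS and from 91.3 to 1311 in TS. Gch1, the first enzyme of tetrahydrobiopterin synthesis, went from 48.7 to 570.3 in CBM and from 21.1 to 490.8 in TS. Among the 10 genes with the steepest rise were also Gpcpd1, Samd11, Rsad2, Slfn14, Isg15, Tmcc2 and Hist3h2ba.

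The 10 genes with the steepest fall were of several kinds. Hsp90ab1, a cytosolic chaperone, went from 2923 to 559.5 CPM in CBM, from 2184 to 507.0 in TBM, from 2858 to 462.7 in CS and from 3325 to 697.9 in TS. Cdk4, the kinase partner of D-type cyclins, went from 235.5 to 48.4 in CBM and from 224.7 to 23.01 in TS. The others were the nucleolar genes Gar1 and Wdr43, the metallothionein Mt2, Hmgn1, Glrx3, Aprt, and C1qbp and Hspe1, nuclear genes for mitochondrial proteins. Ribosomal protein genes gave 305257 to 338051 CPM in the lowest class and 95930 to 127177 in the highest, and the list of 15 heat shock genes 6143 to 9442 and 2659 to 3248. The 26 S phase genes did not follow a straight line. Their sum was highest in the class of 20 to 40% globin in each library (12388, 11198, 13137 and 10947 CPM in CBM, TBM, CS and TS) and lower at 40% and over (7930, 7227, 7301 and 4532). The sum of the 22 genes of G2 and mitosis was instead highest at 40% and over in each library (25692, 23518, 24980 and 29828 CPM). At 2 to 5% globin it was 5741, 8194, 6401 and 6661 CPM.

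**Figure D2:**
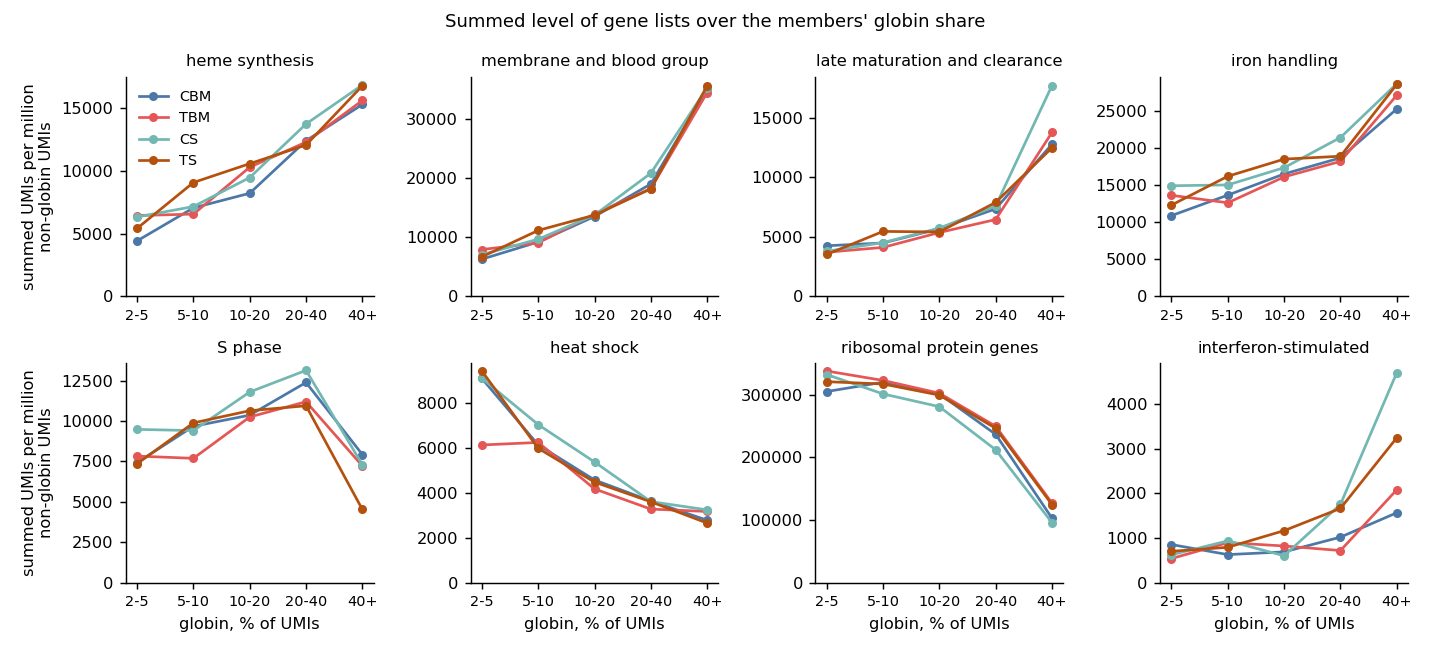
Summed level of 8 gene lists in UMIs per 1000000 non-globin UMIs (vertical axes) over classes of globin share in percent (horizontal axes), 1 line per library. Heme, membrane, late maturation and iron genes are higher with more globin, heat shock and ribosomal protein genes are lower, and S phase genes peak at 20 to 40%.

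The spleen libraries were compared to ask how the members of tumor-bearing mice differed from those of control mice. A gene is called past the threshold when its log2 ratio is at least 1 in size and its mean over both libraries is at least 20 CPM. TS members had less Apol11b, Pdzk1ip1 and histone RNA than CS members. Of 4949 counted genes, 122 (2.47%) were past the threshold and higher in TS and 112 (2.26%) lower. Only 8 of the 122 were at least 2 times the level of free RNA in TS, against 66 of the 112 in CS, so most genes that were higher in TS were not clearly above free RNA. Scaled to all UMIs, globin included, the counts were 119 and 51, and scaled without globin, mitochondrial and ribosomal protein genes they were 241 and 131. Among members with at most 5% mitochondrial UMIs 64 genes were higher, and 245 were lower with each member weighted equally and 234 among members of at least 10% globin. Scaling to all UMIs shifts every log2 ratio by 0.144 in this comparison and by 0.116 to 0.135 in the other 3, while the median gene differed by -0.04.

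Apol11b, a mouse gene of the apolipoprotein L family, had the lowest ratio among the genes named by rank, which lie at least 2 times above free RNA in the higher library. It stood at 315.4 CPM (282.9 to 350.6) in CS and 7.94 (2.58 to 18.5) in TS, a log2 ratio of -5.31 (-6.94 to -4.08). In the marrow it stood at 287.1 (254.3 to 323.0) in CBM and 44.1 (33.8 to 56.6) in TBM, a log2 ratio of -2.70 (-3.12 to -2.30). Both control libraries were thus high and both tumor-bearing libraries low, with intervals apart. The 5 UMIs of TS came from 2 cells, 80.0% of them from 1, whereas the 343 UMIs of CS came from 35 cells and the 277 of CBM from 50. Among members with at least 10% globin Apol11b was at 393.1, 78.01, 555.4 and 17.7 in CBM, TBM, CS and TS, so the order held there. Reweighted to the same mix of globin shares in both libraries, the ratios were -4.36 in spleen and -1.87 in marrow. Early erythroid cells held at most 0.932 CPM and free RNA at most 6.51 CPM.

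Pdzk1ip1, which encodes a small membrane protein that binds PDZ domains, stood at 464.4, 168.7, 353.1 and 123.8 CPM in CBM, TBM, CS and TS. It too was high in both control libraries and low in both tumor-bearing ones: the log2 ratio was -1.51 (-1.88 to -1.16) in spleen and -1.46 (-1.69 to -1.23) in marrow, and -1.02 and -1.04 with the same mix of globin shares. Its UMIs were spread over 87, 80, 58 and 35 cells, and free RNA held 7.78 to 23.9. Slfn14, an endoribonuclease of the Schlafen family known from platelet and red cell disorders, stood at 66.3, 64.8, 104.8 and 27.0. Its spleen log2 ratio was -1.96 (-2.79 to -1.22). TS had no Slfn14 UMI in members under 10% globin, where UMIs are few. A floor of 3 UMIs in its place gave a log2 ratio of 2.14 there. That value is set by the floor and is no measured rise in TS. Tac2, which encodes neurokinin B, stood at 47.7, 34.9, 108.5 and 36.5, so it was high in CS alone (-1.57, -2.28 to -0.92). Cd36, a fatty acid transporter, stood at 110.9, 84.0, 115.0 and 41.3, and Tmcc2, a membrane protein of the endoplasmic reticulum, at 210.4, 153.1, 169.2 and 65.1, both lowest in TS.

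Xpo7, a nuclear exporter used as erythroblasts condense their nucleus, stood at 88.1, 88.3, 113.1 and 9.52 in CBM, TBM, CS and TS. Its UMIs came from few cells, 14 in CS with 34.1% from 1 of them and 5 in TS, and free RNA in TS was at 24.5, so the TS level was under free RNA. Xpo7 also overlaps Npm2 on the same strand. Bpgm, the enzyme that makes bisphosphoglycerate, which lowers the oxygen affinity of hemoglobin, stood at 46.0 in TS and 102.1 in CS (log2 ratio -1.15, -1.79 to -0.55), with 20.7% of the CS UMIs from 1 cell. On the higher side only Eci2, an enzyme of fatty acid oxidation, was past the threshold among the 10 genes named, at 150.8 in TS and 69.0 in CS (1.13, 0.68 to 1.59). The other 9, among them Crebbp, Psme4 and Dbf4, had log2 ratios of 0.50 to 0.79.

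**Figure D3:**
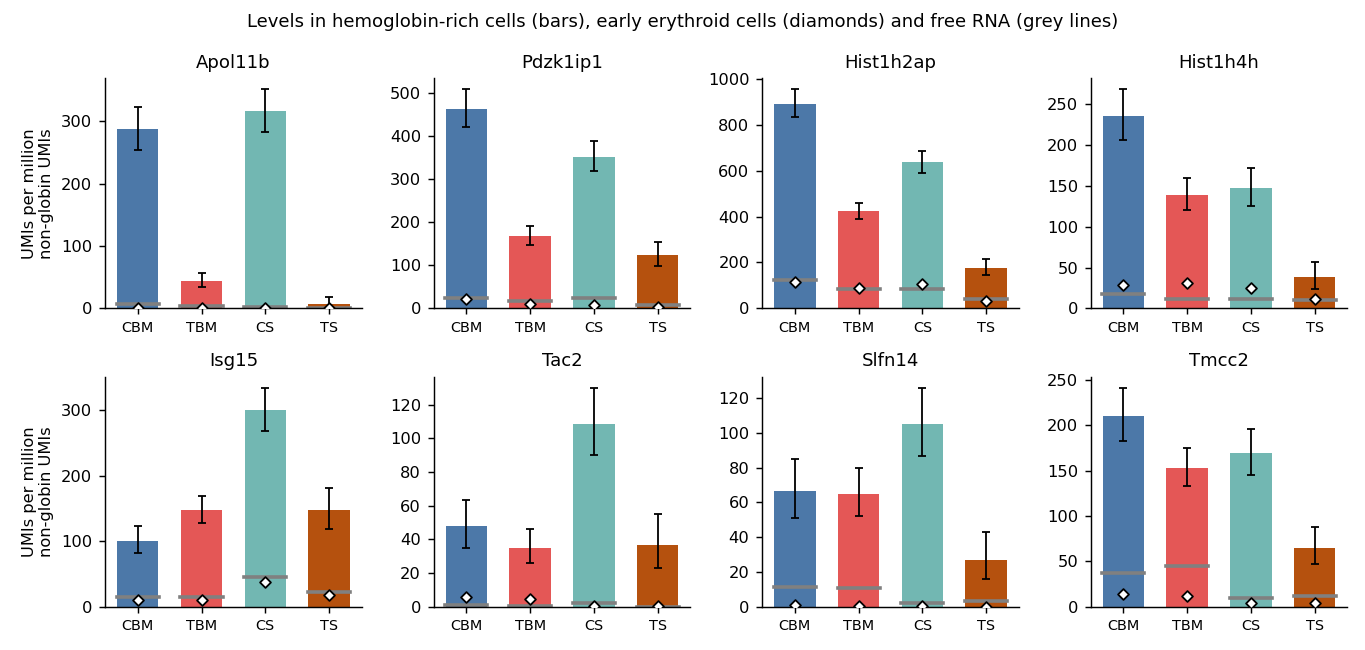
Levels of 8 genes in UMIs per 1000000 non-globin UMIs in the members of CBM, TBM, CS and TS (bars, with 95% counting intervals), early erythroid cells (diamonds) and free RNA (grey lines). Apol11b, Pdzk1ip1 and Hist1h2ap are higher in both control libraries than in the tumor-bearing library of the same organ, and Isg15 and Tac2 are highest in CS.

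Of 15 counted heme synthesis genes, 0 were past the threshold between TS and CS, and all 15 had log2 ratios below 0 (median -0.20, beside -0.04 for all counted genes). Alas2 was at -0.72 (-0.91 to -0.52) and Fech, which puts the iron into heme, at -0.13. Of 26 membrane genes 1 was past the threshold and lower (Cd36), with a median of -0.35, and Epb42, encoding protein 4.2 of the membrane skeleton, stood at 160.3 in TS and 298.0 in CS (-0.89, -1.23 to -0.57). Of 22 late maturation genes 2 were past it and lower (Xpo7 and Bpgm), with a median of -0.29. Over all counted genes 2.26% were past the threshold and lower. With the same mix of globin shares the medians were -0.08 for heme, -0.06 for membrane and -0.19 for maturation, and the part of the globin mix in these differences was not tested further.

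Of 19 counted erythroid transcription factors and 18 counted iron genes, 0 were past the threshold in this comparison, with medians of -0.19 and -0.12. Epor stood at 156.5, 153.8, 149.9 and 155.6 CPM and Gata1 at 176.2, 166.6, 170.1 and 149.2 in CBM, TBM, CS and TS. For both genes the intervals of all 4 log2 ratios included 0 and lay between -0.56 and 0.42. In the S phase list 1 of 26 genes was past the threshold and lower, Ccne2, which encodes cyclin E2 (-1.04, -1.43 to -0.67), and 22 had ratios below 0 (median -0.32, and -0.39 with the same mix). Likewise 0 of 22 genes of G2 and mitosis was past the threshold. Ribosomal protein genes had a median of 0.19, with 68 of 83 above 0 and 0 past the threshold. In the interferon list 2 of 12 genes were past the threshold and lower in TS, beside 2.26% of all counted genes, among them Isg15 (-1.02, -1.37 to -0.69). The list median was -0.13, beside -0.04 for all counted genes, and 28.2% of the Isg15 UMIs of CS and 37.6% of those of TS came from 1 cell.

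Fewer genes were past the threshold between the marrow libraries, which hold more member UMIs than TS. Of 4948 counted genes, 37 (0.748%) were past the threshold and higher in TBM and 49 (0.99%) lower. Scaled to all UMIs the counts were 50 and 24, and without globin, mitochondrial and ribosomal protein genes 114 and 67. Among members under 10% globin the counts were 160 and 257, against 229 and 220 between TS and CS. Apol11b, Rec114, Pdzk1ip1, Tinagl1, Hist1h2ap and Hist1h3b were past the threshold on the lower side among the 10 named. Rec114, known from meiotic recombination, stood at 151.3 CPM in CBM and 52.7 in TBM, and at 91.0 in CS and 54.0 in TS (TBM over CBM -1.52, -1.95 to -1.11), so CBM was the highest and the tumor-bearing libraries were alike. Rec114 shares its strand with Gm20620 and overlaps Nptn on the other strand. Tinagl1, a secreted matrix protein, stood at 92.3, 34.2, 92.0 and 71.4 (-1.43, -1.97 to -0.91), low in TBM alone.

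H1f0, the linker histone of cells that leave the cycle, had the highest ratio of TBM over CBM among the genes named by rank. It stood at 20.7 CPM (20 UMIs) in CBM and 93.97 (132 UMIs in 27 cells) in TBM, and at 2.76 (3 UMIs) in CS and 3.17 (2 UMIs) in TS, a log2 ratio of 2.18 (1.495 to 2.94) for TBM over CBM. Its level in CBM was under free RNA (24.3), and both spleen libraries were near 0. Bora, an activator of Aurora A, was the other named gene past the threshold on the higher side (1.04, 0.49 to 1.63). The remaining 8, such as Sphk1, a sphingosine kinase abundant in red cells, and Prxl2a, had ratios of 0.76 to 0.95.

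Erfe, which encodes erythroferrone, the hormone by which erythroblasts lower hepcidin and free iron for hemoglobin, is a member of the erythropoietin list and fell short of the 20 CPM mean in the comparisons of tumor-bearing with control libraries. It was singled out after its values were seen. In marrow (TBM over CBM) its list did not move with it: 1 of 4 counted genes had a ratio above 0 (median -0.02). Between TS and CS 4 of 6 did (median 0.16, beside -0.04 for all counted genes), with 0 past the threshold in either organ. Erfe stood at 2.07 CPM (2 UMIs) in CBM and 31.3 (44 UMIs in 31 cells) in TBM, and at 8.28 (9 UMIs in 7 cells) in CS and 27.0 (17 UMIs in 12 cells) in TS. Both tumor-bearing libraries were above the control library of the same organ, with a log2 ratio of 3.92 (1.98 to 7.01) in marrow and 1.71 (0.46 to 3.05) in spleen. Free RNA held at most 0.868 CPM and early erythroid cells at most 2.13. With the same mix of globin shares the log2 ratios were 4.31 and 1.79. Among members under 10% globin the spleen log2 ratio was 1.40. In marrow CBM had no Erfe UMI there, and a floor of 3 UMIs in its place gave 0.67, a bound and not a measured ratio. The counts are low, and the 2 UMIs of CBM set the width of the marrow interval.

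Between the marrow libraries the erythroid and cell cycle lists had 0 genes past the threshold. Heme synthesis had 0 of 15 genes past the threshold (median -0.11), iron handling 0 of 15 (-0.07), membrane 0 of 27 (-0.21), late maturation 0 of 22 (-0.24), S phase 0 of 26 (-0.13) and G2 and mitosis 0 of 22 (-0.21), beside -0.03 for all counted genes. Other lists lay further from 0: the dissociation and immediate-early list had 9 of 12 genes below 0 (median -0.34), with 2 past the threshold and higher beside 0.748% of all counted genes. The NF-kB list had 4 of 4 below 0 (median -0.63), with 1 past the threshold and lower beside 0.99%. Its sum was 238.4 CPM in CBM and 170.1 in TBM, under free RNA at 725.1 and 683.2. With the same mix of globin shares the late maturation median was 0.06. The red cell redox and enzyme list had 0 of 18 genes past the threshold, 8 above 0 and 10 below (median -0.05), and between TS and CS 0 of 19, 4 above 0 and 15 below (median -0.17, beside -0.04 for all counted genes). Of this list Gpx1, the glutathione peroxidase of red cells, stood at 5807, 3754, 5185 and 3510 CPM in CBM, TBM, CS and TS. It was higher in both control libraries, by less than the threshold (log2 ratio -0.63, -0.68 to -0.57, in marrow and -0.56, -0.63 to -0.49, in spleen).

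Genes of MHC class I presentation were mostly lower in both tumor-bearing libraries than in the control library of the same organ, by less than the threshold for most. Between the spleen libraries 11 of 12 counted genes had ratios below 0 and 2 were past the threshold and lower, H2-Q4 and H2-Q7 (median -0.60), beside 2.26% lower and a median of -0.04 over all counted genes. Between the marrow libraries 9 of 11 were below 0 and 1 was past the threshold, H2-Q7 (median -0.45), beside 0.99% lower and a median of -0.03 over all counted genes. B2m, the light chain that all class I molecules share, stood at 1171, 787.3, 1470 and 941.3 CPM in CBM, TBM, CS and TS, a log2 ratio of -0.57 (-0.69 to -0.45) in marrow and -0.64 (-0.78 to -0.51) in spleen. H2-Q7 stood at 62.2, 13.5, 71.7 and 14.3 (-2.20, -3.03 to -1.44, and -2.33, -3.51 to -1.33). Free RNA and early erythroid cells were ordered in the same way: free RNA held 149.7, 59.5, 292.6 and 90.1 CPM of H2-Q7 and early cells 268.4, 71.4, 296.1 and 79.4. The list sum in members (2995, 2176, 3319 and 2211 CPM) was below that of free RNA (5389, 4560, 5253 and 3491). With 10% of free RNA subtracted the B2m ratios were -0.59 and -0.60.

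Histone genes differed between libraries as a group, and the group was formed after their values were seen. The 67 histone genes of the replication clusters and related loci summed to 16516, 12581, 11660 and 8757 CPM in CBM, TBM, CS and TS. CBM was thus the highest and TS the lowest. Free RNA held 910.1 to 1388 and early erythroid cells 1706 to 2607, so these messages were more abundant in members than in either. Of those counted, 35 of 37 had ratios below 0 between TS and CS (5 past the threshold, median -0.45), and 45 of 51 between TBM and CBM (4 past it, median -0.49). All 49 were below 0 between CS and CBM (14 past it, median -0.73) and all 44 between TS and TBM (11 past it, median -0.68). Over all counted genes 2.26, 0.99, 1.78 and 2.36% were past the threshold and lower in these comparisons, with medians of -0.04, -0.03, 0.02 and 0.01. Hist1h2ap, an H2A gene, stood at 891.4, 423.6, 636.4 and 177.8, and Hist1h4h, an H4 gene, at 235.3, 138.8, 147.1 and 38.1. Hist1h2ap was higher with more globin. In CBM, TBM, CS and TS it was at 499.6, 277.8, 404.4 and 83.6 in members under 10% globin. At 10% and over it was at 1067, 539.6, 840.9 and 293.0. The part of the globin mix in the histone differences was not tested. Replication histone messages end in a stem-loop and most lack a poly(A) tail, so capture by oligo-dT reads only their polyadenylated part. Near-identical copies share their 3′ ends: each 50-base window in the last 300 bases of Hist1h2ap and 63.7% of those of Hist1h4h also occur in other genes, so the split between copies is uncertain.

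**Figure D4:**
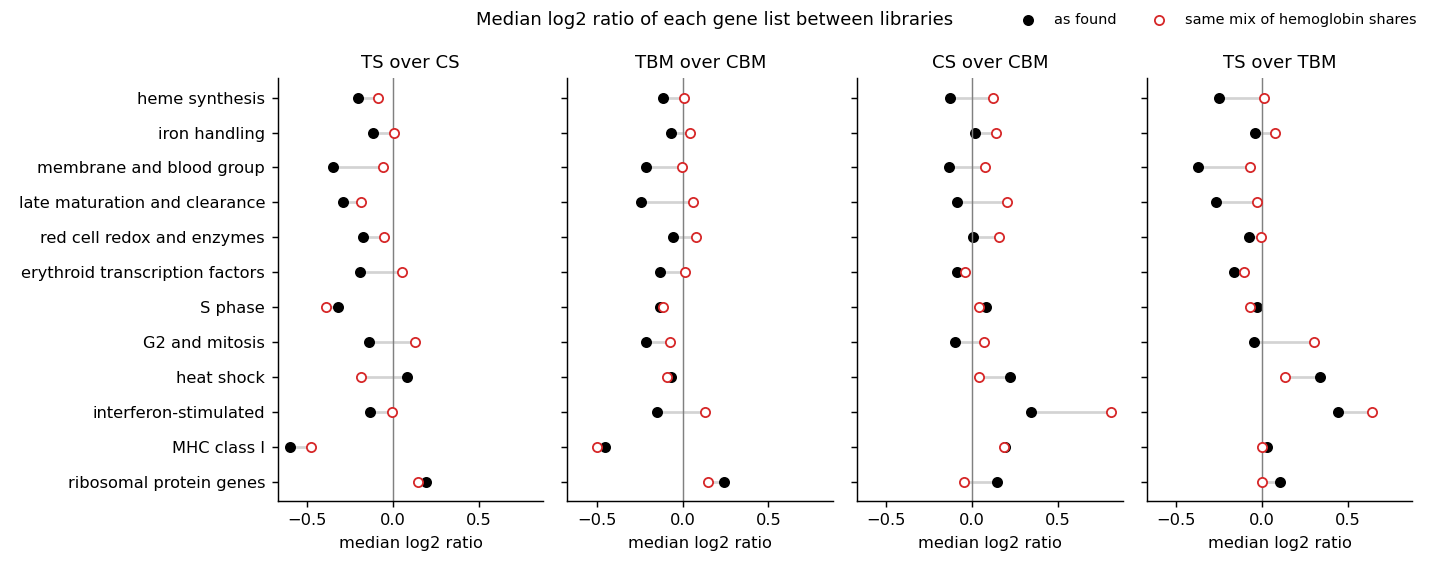
Median log2 ratio of the counted genes of 12 lists (horizontal axes) in the 4 comparisons, as found (black) and with the same mix of globin shares in both libraries (red circles). The heme, membrane and late maturation medians lie nearer to 0 with the same mix between TS and CS and between TS and TBM, while MHC class I is at -0.60 as found and -0.48 with the same mix between TS and CS.

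Control spleen and control marrow were compared as 1 library each, so the organ cannot be told apart from the animal, the preparation or the run. Of 4930 counted genes, 60 (1.22%) were past the threshold and higher in CS and 88 (1.78%) lower. Scaled to all UMIs the counts were 60 and 41. The comparison shares its libraries with those above and below and adds no independent sample. The highest ratio among the genes named by rank was that of Isg15, an interferon-stimulated gene. Isg15, a ubiquitin-like protein, stood at 100.5 CPM in CBM and 147.4 in TBM, and at 299.8 in CS and 147.6 in TS (CS over CBM 1.58, 1.24 to 1.92). Irf7, a transcription factor of the interferon response, was at 1.51 (0.64 to 2.45), and Rsad2, viperin, at 0.72. Of 13 counted genes of the list 3 were past the threshold and higher and 1, Ifitm1, lower (median 0.34, and 0.81 with the same mix of globin shares, beside 0.02 for all counted genes). A single cell gave 28.2% of the Isg15 UMIs of CS, and the list sum in CS was 4696 CPM at 40% globin and over and 624.0 at 2 to 5%. Over all members the list sum was under free RNA in CBM (998.2 against 1944) and CS (1456 against 2283). The CS class of 40% and over also held 452.4 CPM of a marker list for macrophages of erythroblastic islands, against 6.71 at 2 to 5%. The part of such RNA in the interferon genes was not tested.

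The 10 genes named on the lower side of CS were 9 histone genes and Cdkn2d. 6 of the histone genes were past the threshold, from Hist1h2bm at -1.09 (-1.50 to -0.68) to Hist1h3d at -1.76 (-2.34 to -1.20). Cdkn2d, a CDK4 and CDK6 inhibitor, stood at 393.9, 314.7, 200.5 and 185.7 CPM in CBM, TBM, CS and TS, higher in both marrow libraries (-0.97, -1.22 to -0.73, and -0.27 with the same mix). Tpp2, a cytosolic peptidase, and Agfg1 were past the threshold on the higher side with Isg15 and Tac2. Heme, iron, membrane, late maturation, S phase and mitosis lists had 0 genes past the threshold, and 1 of 20 erythroid transcription factors, Cited2, was past it and lower, beside 1.78% of all counted genes. Cited2 was under free RNA in each library. The heat shock list had 11 of 11 genes above 0 and 0 past the threshold (median 0.22, and 0.04 with the same mix).

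Between the organs of tumor-bearing mice, 93 of 4956 counted genes (1.88%) were past the threshold and higher in TS and 117 (2.36%) lower. Scaled to all UMIs the counts were 108 and 61, and without globin, mitochondrial and ribosomal protein genes 184 and 166. At least 2 times free RNA in the higher library were 12 and 50. The lower side held Hist1h4h, Hist1h2bc, Hist3h2ba, Hist1h2ap, Hist1h4c and genes that go up with globin. Slc20a1, a phosphate importer, stood at 163.8, 169.4, 124.2 and 68.3 CPM in CBM, TBM, CS and TS (TS over TBM -1.31, -1.82 to -0.84), and Gpcpd1 at 108.8, 90.4, 81.9 and 41.3 (-1.13, -1.80 to -0.51). TS was the lowest for both. On the higher side Tinagl1 (1.06, 0.44 to 1.68) and Smim8 (1.01, 0.40 to 1.61) were past the threshold.

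The membrane list had 2 of 27 genes past the threshold and lower in TS (median -0.37), Cd36 and Slc2a4, the latter with 9 UMIs in TS. The late maturation list had 1 of 22, Xpo7 (median -0.27), and the heme list 0 of 15 (median -0.25), beside 2.36% lower and a median of 0.01 over all counted genes. With the same mix of globin shares these medians were -0.07, -0.03 and 0.01. The heat shock list had 1 of 11 past the threshold and higher, beside 1.88% of all counted genes. This was Hspe1, the mitochondrial chaperonin partner, at 404.8 CPM in TS and 198.6 in TBM (1.03, 0.78 to 1.28), with a list median of 0.34 and of 0.14 with the same mix. Hspe1 was under free RNA in all 4 libraries. In the NF-kB list the 1 counted gene was past the threshold and higher, Nfkbia, which encodes the inhibitor I-kappa-B alpha, at 84.0, 56.2, 164.6 and 173.0 CPM in CBM, TBM, CS and TS, also under free RNA in each library (100.2, 115.3, 234.5 and 271.1). It was higher in both spleen libraries than in both marrow libraries.

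RNA of other cell types was low in the members and mostly under free RNA. Of 9 marker lists, the neutrophil list stood at 1839, 1591, 172.9 and 222.2 CPM in CBM, TBM, CS and TS, against 10705, 17358, 2454 and 3040 in free RNA. The monocyte and dendritic list stood at 308.9, 180.1, 696.2 and 28.6, against 3095, 2089, 3347 and 290.5. The list for macrophages of erythroblastic islands, the nurse cells around which red cells mature, was above free RNA in CS (63.5 against 33.2) and TS (25.4 against 23.4) and below it in CBM (36.3 against 76.4) and TBM (4.98 against 36.8). Of its 12 genes 3, 8, 3 and 3 had no UMI. The other 6 lists were below free RNA in each library, and between 1 and 12 of their 12 or 13 genes had no UMI. In all, 12 members (4, 2, 5 and 1 in CBM, TBM, CS and TS) held UMIs of another cell type. Each had at least 5 UMIs of a list, at over 3 times the list's share in free RNA. Without these members the 80 ratios named by rank moved by less than their counting intervals. Without them the median of the 5 counted monocyte and dendritic genes between TS and CS went from -4.24 to -1.71.

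**Figure D5:**
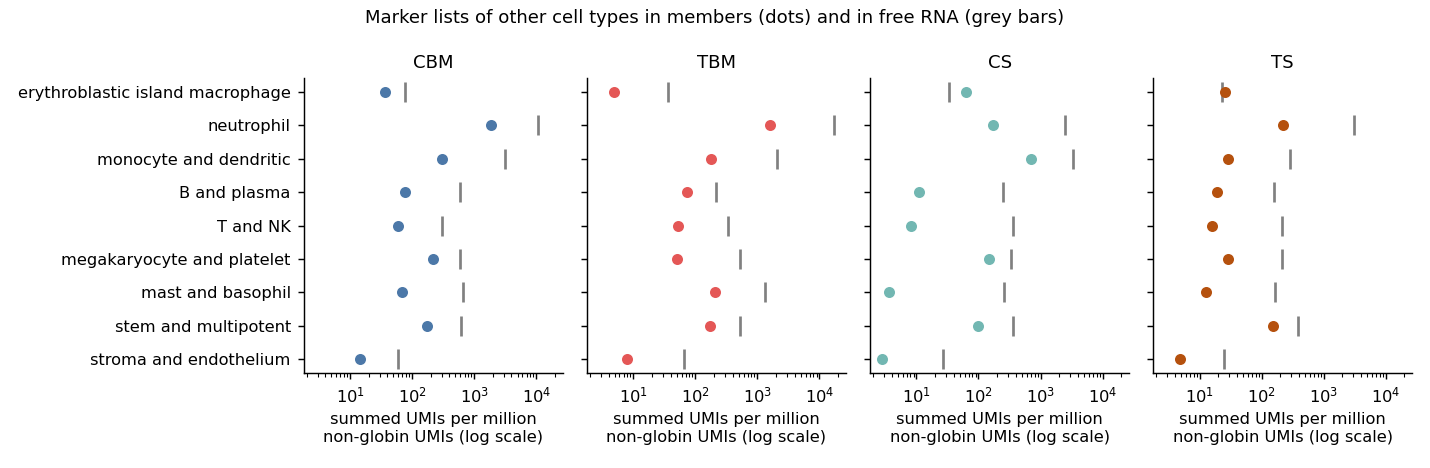
Summed UMIs per 1000000 non-globin UMIs (log scale) of 9 marker lists of other cell types in the members (dots) and in free RNA (grey bars), 1 panel per library. Members lie below free RNA for every list except the macrophage list in CS and TS.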

How the data were processed

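Single-cell RNA was measured in 4 droplet libraries (CBM, TBM, CS and TS), 1 per group. The authors aligned reads to mm10 and counted UMIs with Cell Ranger 4.0, and deposited unfiltered count matrices of genes by barcodes. Groups were taken from the sample labels. Members and gene lists were chosen with earlier results of these data known. Counts were summed over members of a library, divided by their UMIs without globin genes and multiplied by 1000000 (CPM). Levels carry exact Poisson, shares exact binomial (Clopper-Pearson) and log2 ratios exact conditional 95% intervals, which cover counting error only. A ratio was counted at a mean of at least 20 CPM, leaving out globin genes and the 4 genes of the selection, and past the threshold at a log2 ratio of at least 1. With 1 library per group no p-value was computed. Genes named by rank were the 10 highest and 10 lowest ratios at a mean of at least 50 CPM, with an interval without 0 and at least 2 times free RNA in the higher library, leaving out mitochondrial, ribosomal protein, immunoglobulin, unnamed and X-inactivation genes. All genes of the fixed lists could also be named. No doublet caller was run, and 12 members with UMIs of another cell type were left out as an alternative. For the same mix of globin shares, CPM in each of 5 classes of globin share were averaged with weights equal to the mean share of members in that class over both libraries. The libraries held 101811035 to 176094297 UMIs and the members 752395 to 1842409. Overlaps of genes were read from GENCODE M21 and promoter windows from RefSeq on GRCm38.p6. Python 3.11.15, numpy 2.4.6, pandas 2.3.3 and scipy 1.17.1 were used, and scripts were tested on simulated data. Results of some genes are not reported here.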

Additional observations from a re-analysis of the deposited data

How the results depend on the processing

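Settings are given as counts past the threshold, higher then lower. The number of genes past the threshold depended on the scaling, the depth limit and the cells. Scaled without globin, mitochondrial and ribosomal protein genes, 241 genes were higher for TS over CS, 114 for TBM over CBM, 184 for TS over TBM and 115 for CS over CBM. Scaled to all UMIs, 51 were lower for TS over CS, 24 for TBM over CBM, 61 for TS over TBM and 41 for CS over CBM. With each member weighted equally, 245 were lower for TS over CS, 88 higher for TBM over CBM, 131 higher for CS over CBM and 188 lower for TS over TBM. In members under 10% globin the counts were 229 and 220, 160 and 257, 172 and 292, and 200 and 211 for TS over CS, TBM over CBM, CS over CBM and TS over TBM, an order kept for the lists of 4 pairs that follow. In members of 10% globin or more they were 234 lower for TS over CS, 108 and 87 for TBM over CBM, 102 higher for CS over CBM, and 153 and 213 for TS over TBM. With all 4 erythroid genes detected 77 were higher for TBM over CBM and 50 lower for CS over CBM, and without the 5% of members with the most UMIs 83 and 108 were higher for these comparisons. With 10% of free RNA subtracted the counts were 67 and 78 for TBM over CBM, 100 higher for CS over CBM, with 161 higher for TS over TBM. With mitochondrial UMIs at most 5%, 64 were higher for TS over CS, and with the same mix of globin shares 58 were higher for TBM over CBM. At a mean of at least 100 CPM the counts were 8 and 15, 0 and 5, 3 and 12, and 4 and 17, and with no CPM minimum but 10 UMIs over both libraries 430 and 461, 401 and 378, 393 and 519, and 404 and 647. Among genes at least 2 times free RNA in the higher library, an alternative chosen after seeing the data, they were 8 and 66, 9 and 19, 19 and 24, and 12 and 50. TMM scaling and leaving out members with UMIs of another cell type kept all 8 counts within 1.5 times. The cause of these shifts was not tested.

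The share of members was 1.74% in CBM and 1.87% in TBM with all 4 erythroid genes required, 1.04, 1.21, 0.903 and 0.445% in CBM, TBM, CS and TS after thinning to 2000 UMIs, 1.72, 1.30 and 1.10% in CBM, TBM and CS among barcodes of at least 350 genes, and 2.26% in TBM and 0.694% in TS at 10% globin or more. Medians of at least 0.2 in size changed sign as follows. The neutrophil list did so for TS over CS with equal weights (-0.49). Late maturation did so for TBM over CBM with equal weights (0.13) and the same mix (0.058). Dissociation genes did so for CS over CBM with free RNA subtracted (-0.036). Heme (0.013) and ATF4 genes (0.11) did so for TS over TBM with the same mix. The neutrophil median for TS over TBM came to 1.14 with 10% of free RNA subtracted. At this median both libraries stood at a floor of 3 UMIs after the subtraction, so 1.14 is set by the UMI totals and describes no change in level. Of the 80 ratios named by rank, 0 changed sign under 6 settings, 10 moved outside their counting intervals with equal weights and 15 with the same mix. No paired analysis was possible because each group has 1 library and the labels give no replicate numbers, so leaving out a replicate was not possible either. Depth limits genes of few UMIs: TS, with 51 members, gave the fewest.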

Other observations

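Further lists were described for the members by the same counts. Of the cyclin D and CDK inhibitor list 2 of 10 counted genes were past the threshold and higher in TS than in CS, beside 2.47% of all counted genes, while 6 of the 10 had ratios below 0 (median -0.07). They were Ccnd2, encoding cyclin D2, at 54.0 CPM in TS and 11.04 in CS, and Cdk6, its kinase partner, at 111.1 and 40.5. Both were under free RNA in TS, at 139.0 and 393.1 CPM. Of 12 counted genes of the dissociation and immediate-early list, 9 had ratios below 0 between TBM and CBM (median -0.34), and 2, Jun and Ier3, were past the threshold and higher, beside 0.748% of all counted genes. Jun stood at 23.8, 74.7, 76.3 and 55.6 CPM in CBM, TBM, CS and TS, so CBM was the lowest, and each level was under free RNA. Of 8 counted genes of the ATF4 list, 6 had ratios below 0 between TS and CS (median -0.21), and 1, beside 2.47% of all counted genes, was past the threshold and higher. This was Phgdh, the first enzyme of serine synthesis (1.42, 0.52 to 2.37), also under free RNA in every library. Of the stress erythropoiesis signaling list 3 of 21 genes were counted between TS and CS, 2 with ratios above 0 (median 0.81), and 1 was past the threshold and higher, beside 2.47% of all counted genes. This was Tsc22d3, a glucocorticoid-induced gene (1.22, 0.26 to 2.22), at 19.7, 38.4, 15.6 and 36.5 CPM in CBM, TBM, CS and TS, with free RNA at 66.0, 47.5, 40.8 and 35.3 CPM. The other gene above 0, Zfp36l2, was under free RNA in every library. Between TBM and CBM 4 of 4 counted genes of this list had ratios above 0 (median 0.19), and 0 were past the threshold, beside 0.748% of all counted genes.

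In the erythropoietin and Kit list, Bcl2l1, which encodes the survival protein BCL-XL, stood at 46.6, 42.7, 34.9 and 20.6 CPM in CBM, TBM, CS and TS, and was past the threshold and lower in TS than in TBM (-1.05, -2.04 to -0.17). It was 1 of 6 counted genes of its list, beside 2.36% of all counted genes. Bcl2l1 was above free RNA in each library. Its level was also higher in members with more globin in each library. In members with at least 20% globin it stood at 75.3, 88.9, 67.1 and 76.7 CPM in CBM, TBM, CS and TS. The part of the globin mix in the lower Bcl2l1 level of TS was not tested. Tfr2, the second transferrin receptor, was 1 of 18 counted iron genes past the threshold and higher between TS and TBM, beside 1.88% of all counted genes, at 34.9 CPM in TS and 12.8 in TBM, both under free RNA.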
